A study of Triticum aestivum with 12 samples.

Results

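Leaves of droughted bread wheat that had been sprayed with the microalgal biostimulant LRM were compared with leaves of droughted plants sprayed with water, across every expressed gene. The comparison holds 6 of the 12 libraries of the series, 3 from each spray. It is defined by spray and irrigation labels, with no measured value in the rule, though earlier results of these data were known. Of 99386 gene identifiers in the deposited count table, 57226 had enough counts to be tested. All plants were wild type Triticum aestivum of the variety Chinese Spring L42 (WBCDB0017), grown in a greenhouse under long days at 22 °C by day and 20 °C by night. The drought_LRM group received 30 ml of water 2 times a week in pots that retain 180 ml, and 0.5% LRM on the foliage from the day after planting and then at 14-day intervals. The drought_water group received the same 30 ml and a foliar spray of water. The irrigated_LRM and irrigated_water groups received 180 ml at each watering with the same sprays, and entered the fit for their spread and as a frame for the levels. The LRM groups differ from the water groups by the whole product, since the labels hold no spray made of its carrier alone.

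Drought acts on leaves through closure of stomata and the hormone abscisic acid, which switches on genes for protective proteins and compatible solutes, while genes of photosynthesis and growth are commonly turned down. Biostimulants are preparations applied in small amounts to aid growth or tolerance of stress and not as a source of mineral nutrients. Bread wheat carries 3 related subgenomes, A, B and D, and most of its genes exist as near-identical copies on them. Counts of an identifier may therefore include reads of a copy, and each identifier named here is uncertain in that respect. The identifiers state a chromosome arm but carry no gene name, and a search of the RefSeq table for IWGSC CS RefSeq v2.1 gave 0 matches. Pathways and leaf markers could therefore not be read, so the genes are described by level, size of difference, arm and behaviour over the libraries.

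Total counts were 17541561 to 42569702 per library in drought_LRM and 39432162 to 47305447 in drought_water, and drought_LRM 2 was the shallowest library of the series. Whether libraries of a group stem from different plants is not in the labels, so each p-value reflects only how far these samples spread, which may be technical. Spearman correlations of log2 CPM (counts scaled to a common library size) were 0.957 to 0.970 among the drought_LRM libraries, 0.973 to 0.978 among the drought_water libraries and 0.938 to 0.973 between the groups. In a principal component analysis of the 6 drought libraries the first component held 48.9% of the variance and separated the sprays, with scores of 55.7, 44.9 and 37.8 in drought_LRM 1, 2 and 3, against -21.1, -46.3 and -71.1 in drought_water 1, 2 and 3. The second component held 20.9% and set drought_LRM 1 (53.3) apart from drought_LRM 2 (-55.8). The median SD of a gene's log2 level was 0.205 in drought_LRM and 0.159 in drought_water (n = 3 each). The 100 most abundant genes of each library took 33.4% ± 1.24 of counts in drought_LRM and 36.8% ± 1.35 in drought_water (SD, n = 3 each), groups that did not overlap and whose exact two-sided permutation p was 0.1, the smallest that 3 against 3 allows. Genes at 1 CPM or more numbered 40816 ± 723 in drought_LRM and 39875 ± 650 in drought_water (SD, n = 3 each, exact two-sided permutation p = 0.2).

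Spraying with LRM under drought went with higher expression of 2439 genes (4.26% of those tested) and lower expression of 2420 (4.23%), 8.49% in all, at an adjusted p below 0.05 in edgeR's quasi-likelihood test. Most differences were modest. The median log2 difference, LRM over water, was 0.83 among the higher genes and -0.76 among the lower ones, and these medians were the same with genes at 0 in a group set to their lower bound. At least 1.5-fold were 3590 of the 4859 called genes, at least 2-fold 925 higher and 712 lower, and at least 4-fold 276 higher and 149 lower. An unadjusted p below 0.05 was found for 12664 genes. The libraries of the groups did not overlap in 2410 of the higher and 2402 of the lower genes, which the test largely builds in, against 13.1% and 13.9% of all tested genes (27% in both directions). The median standard error (SE) of the log2 difference was 0.17 for the called genes. In bulk leaf RNA, fewer cells of a type and less RNA per cell cannot be told apart.

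The number of calls depended on single drought libraries. It was 2791 without drought_LRM 1, 2550 without drought_water 2 and 1700 without drought_water 3, while the other omissions kept it within 1.5 times of 4859. A core of 1550 genes, 872 higher (1.52%) and 678 lower (1.18%), was called with all libraries and in each of the 6 fits that left out 1 drought library, which is 2.71% of the genes tested and 31.9% of the called genes. The core had larger differences, with medians of 1.11 and -1.01 on the log2 scale, which the demand for a call in every fit favours. Division by library totals in place of the trimmed mean of M values (TMM) shifted the median log2 difference over the whole table by 0.12. The split became 3081 higher and 1541 lower, so the near-even split depends on the scaling. DESeq2 with its own size factors kept the split near even, at 2894 higher and 3033 lower. limma on log2(FPKM + 1) gave 3163 higher and 1304 lower. Of the 4859 calls, DESeq2 shared 4692 in the same direction, and fits with other filters on low counts shared 4521 and 4559. Library totals shared 3936, limma 3496 and a fit of the 6 drought libraries alone 3090 (63.6%).

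**Figure D1:**
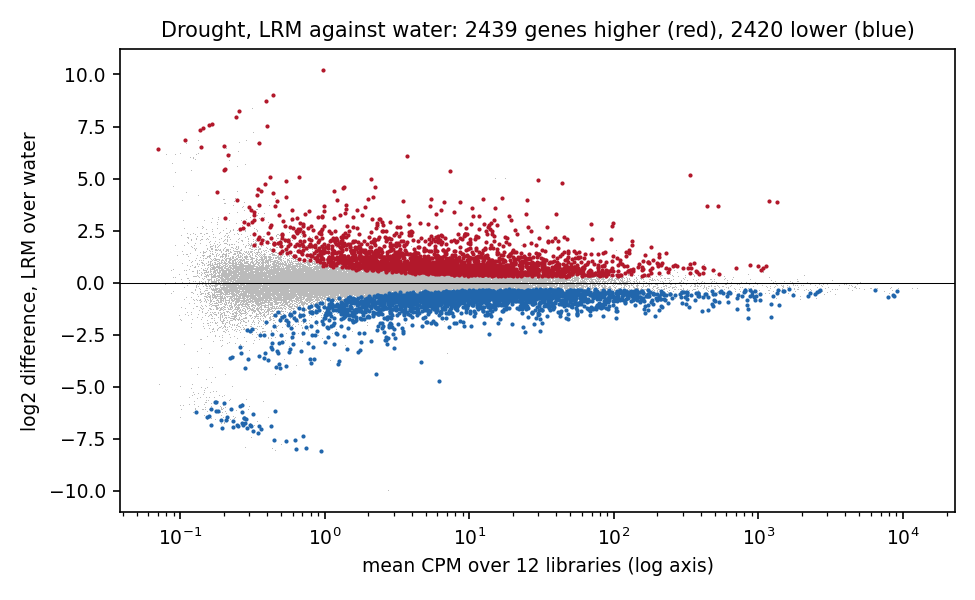
Each point is a gene: the horizontal axis is its mean CPM over the 12 libraries (log axis), the vertical axis its log2 difference of drought_LRM over drought_water, with called genes in red (2439 higher) and blue (2420 lower) and the others in grey. The called genes include 45 with 0 counts in drought_LRM and 15 with 0 counts in drought_water, whose fitted height depends on the prior count of the fit.

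Traes_3B_F3882622D showed the greatest rise by the rule for named identifiers, which asked for a call in all 7 of these fits, no overlap between the groups, at least 1 CPM in each drought library and 5 CPM or more on average under the spray with the higher level (712 higher and 507 lower genes passed). It stood at 52.1, 59.8 and 43.2 TMM-scaled CPM in drought_LRM 1, 2 and 3, against 8.34, 2.21 and 2.35 CPM in drought_water 1, 2 and 3. All drought_LRM libraries were high, drought_water 1 stood between them and the rest, and drought_water 2 and 3 were close to the irrigated libraries, which held 2.25 to 2.35 CPM with LRM and 1.91 to 2.21 CPM with water. The log2 difference between sprays under drought was 3.57 (SE 0.37, edgeR adjusted p = 0.000608), an 11.9-fold rise. Without drought_water 1 it was 22.6-fold (log2 4.50).

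Traes_2AL_F27B50401 had the next greatest rise under the same rule. Its levels were 109, 82.7 and 74.9 CPM in drought_LRM 1, 2 and 3, against 19.6, 5.61 and 1.37 CPM in drought_water 1, 2 and 3. The drought_LRM libraries lay close together, whereas the drought_water libraries spanned a wide range, with drought_water 1 the highest. In irrigated leaves it was nearly silent, with 0 to 0.355 CPM in irrigated_LRM and 0 to 0.292 CPM in irrigated_water. The log2 difference under drought was 3.32 (SE 0.62, edgeR adjusted p = 0.00541), a 10.01-fold rise, and 25.8-fold without drought_water 1. DESeq2 gave it an adjusted p of 0.0635, above the threshold, and over 20 alternatives its adjusted p ran from 0.000219 to 0.0635.

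By the same rule Traes_7DL_630534A5F had the greatest fall. It stood at 1.68, 2.96 and 3.45 CPM in drought_LRM 1, 2 and 3, against 11.6, 15.0 and 17.5 CPM in drought_water 1, 2 and 3. Every drought_LRM library was low. The irrigated levels were 15.6 to 26.5 CPM in irrigated_LRM and 15.3 to 17.3 CPM in irrigated_water. Drought_water 3 lay within them, drought_water 2 just below them and drought_water 1 lower. The log2 difference was -2.47 (SE 0.25, edgeR adjusted p = 0.000606), which is 5.52-fold lower with LRM.

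Traes_3AS_8A727B48F was next among the falls that met the rule. Its levels were 1.88, 2.36 and 2.49 CPM in drought_LRM 1, 2 and 3, against 5.59, 9.02 and 19.8 CPM in drought_water 1, 2 and 3. All 6 irrigated libraries lay above the drought libraries, at 40.1 to 46.7 CPM in irrigated_LRM and 36.8 to 43.2 CPM in irrigated_water. The log2 difference between sprays under drought was -2.36 (SE 0.35, edgeR adjusted p = 0.00184), 5.14-fold lower with LRM, and 3.27-fold lower without drought_water 3.

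**Figure D2:**
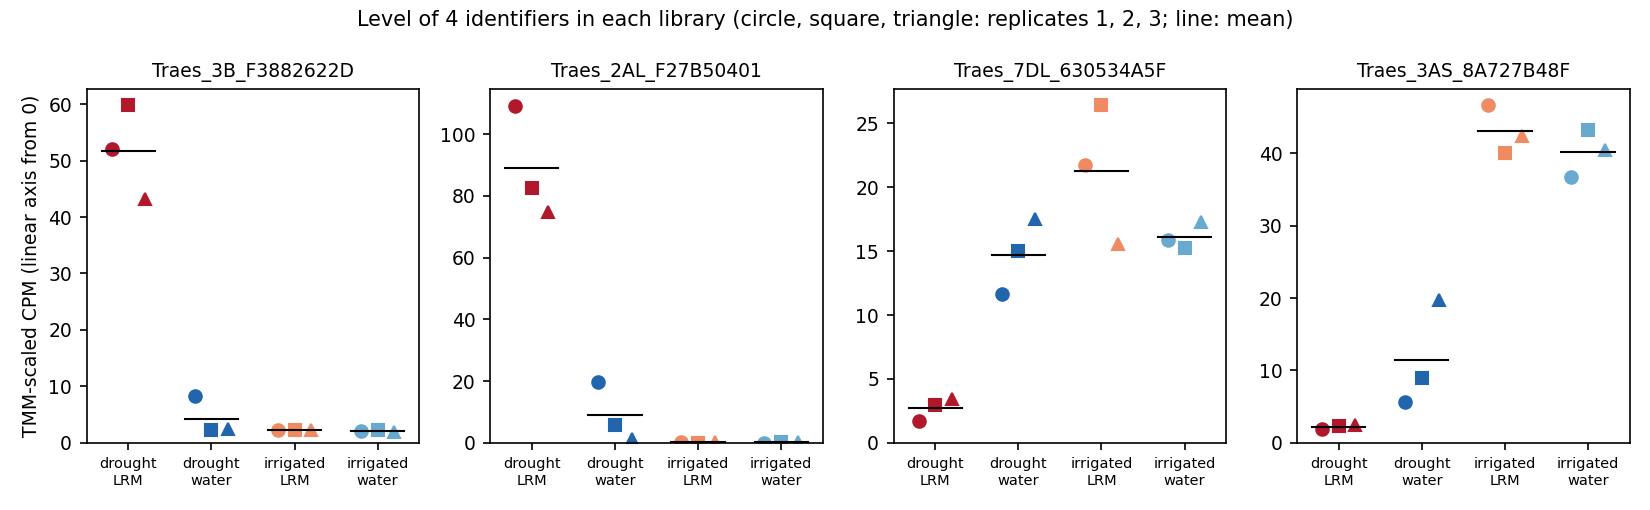
TMM-scaled CPM (linear axes from 0) of the 4 named identifiers in each library of the 4 groups, with replicates 1, 2 and 3 as circle, square and triangle and the group mean as a line. The drought_LRM libraries stand apart from all others in each panel, and in each panel drought_water 1 is the library nearest to them.

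The water-sprayed drought libraries differed among themselves in the same way in most called genes. Among the 2439 higher genes, drought_water 1 was the highest library of its group in 79.7% and drought_water 3 the lowest in 72.1%. Among the 2420 lower genes drought_water 3 was the highest in 78.9% and drought_water 1 the lowest in 64.9%. Over all tested genes each drought_water library was the highest of its group in 31.9% to 34.5%. Drought_water 1 was highest, 2 intermediate and 3 lowest in 61.1% of the higher genes and 18.7% of all tested genes, and the reverse held in 52.2% of the lower genes and 17.5% of all tested genes. These libraries helped to choose the called genes, so the shares are a description.

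Relative to the irrigated_water mean, the median of the higher genes on the log2 scale was 1.10, 0.999 and 0.96 in drought_LRM 1, 2 and 3, against 0.44, 0.24 and 0.10 in drought_water 1, 2 and 3. For the lower genes the medians were -0.91, -0.82 and -0.87 in drought_LRM 1, 2 and 3, against -0.35, -0.25 and -0.02 in drought_water 1, 2 and 3. The drought_LRM libraries were alike in both sets, and drought_water 3 lay close to irrigated leaves in both. The median SD of log2 levels was 0.166 in drought_LRM and 0.218 in drought_water among the higher genes. Among the lower genes it was 0.165 and 0.191, but over all tested genes 0.205 and 0.159. The likeness of drought_LRM therefore holds for genes that the test picked, and not for the whole table. Among irrigated leaves, the libraries numbered 1 lay nearest to the drought side: the lower genes stood at -0.18 in irrigated_LRM 1 and -0.16 in irrigated_water 1, against -0.05 and -0.02 in irrigated_LRM 2 and 3 and 0.08 in each of irrigated_water 2 and 3. Within each drought group too, the library numbered 1 lay farthest from the irrigated_water mean in both sets. The labels do not say what the numbers mark.

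**Figure D3:**
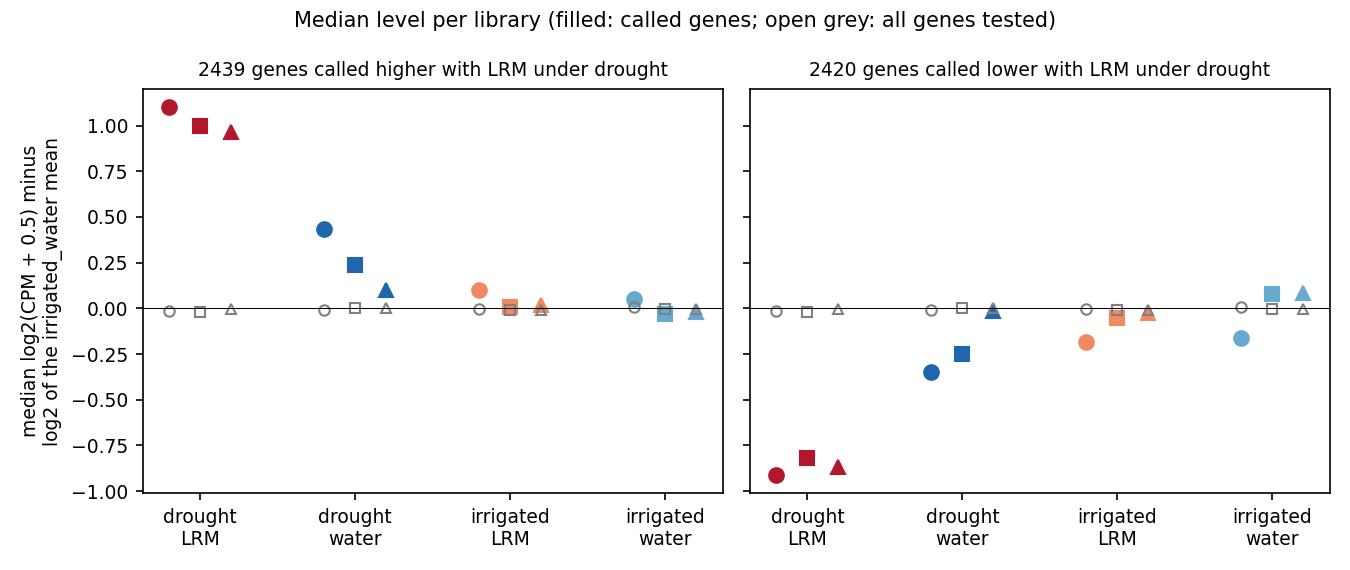
Median over genes of log2(CPM + 0.5) minus the same of the irrigated_water mean, per library, for genes called higher (left) and lower (right) with LRM under drought, with all tested genes as open grey symbols near 0. The drought_LRM libraries lie at 0.96 to 1.10 on the left and -0.91 to -0.82 on the right, and the drought_water libraries at 0.10 to 0.44 and -0.35 to -0.02.

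Levels in the irrigated groups showed where the called genes stood. Over the higher genes the medians of the group means were 11.1 CPM in drought_LRM, 6.003 in drought_water, 4.62 in irrigated_LRM and 4.42 in irrigated_water. Over the lower genes they were 6.64 CPM in drought_LRM, 10.9 in drought_water, 11.8 in irrigated_LRM and 12.7 in irrigated_water. The drought_LRM mean was the highest of the 4 groups in 2423 of the 2439 higher genes and the lowest in 2418 of the 2420 lower genes, against 34.8% and 36.0% of all tested genes. The called genes were picked by the difference of drought_LRM from drought_water, which builds in part of this order. In 297 higher genes (12.2%, against 14.2% of all tested genes) drought_water was the lowest group, with median levels of 5.71 CPM in drought_LRM, 3.10 in drought_water, 4.14 in irrigated_LRM and 3.77 in irrigated_water. In 242 lower genes (10%, against 15.9% of all tested genes) it was the highest group, with medians of 3.36 CPM in drought_LRM, 5.74 in drought_water, 4.87 in irrigated_LRM and 5.10 in irrigated_water. These medians follow in part from picking genes by the order of the groups. By group means, drought_water cannot be the lowest group in a gene lower with LRM, nor the highest in a gene higher with LRM. The shares over all tested genes include such genes, so they are not a like-for-like background for the 297 and 242 genes.

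The contrasts of drought under each spray share their drought libraries with the comparison of sprays, so their values are only set side by side. The 2439 higher genes had a median log2 change under drought of 1.08 with LRM and 0.32 with water. The 2420 lower genes had medians of -0.87 with LRM and -0.21 with water. Traes_3B_F3882622D differed between drought and full irrigation by 4.48 on the log2 scale with LRM (SE 0.40) and by 1.07 with water (SE 0.40), with edgeR adjusted p of 6.48e-06 and 0.3. Traes_7DL_630534A5F differed by -2.99 with LRM (SE 0.25) and by -0.13 with water (SE 0.22), with edgeR adjusted p of 4.88e-06 and 0.896. The other named identifiers were called under both sprays. Traes_2AL_F27B50401 differed by 8.67 with LRM (SE 0.92) and by 5.71 with water (SE 0.98), with edgeR adjusted p of 2.43e-05 and 0.0147. For Traes_3AS_8A727B48F the values were -4.27 with LRM (SE 0.36) and -1.81 with water (SE 0.31), with edgeR adjusted p of 4.96e-06 and 0.0141.

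Under full irrigation edgeR called 0 of the 57226 genes (0%) for LRM against water, where 4977 had an unadjusted p below 0.05. DESeq2 called 211 and limma 0. In these libraries, which share none with the drought comparison, the higher genes had a median log2 difference of 0.06 and the lower genes of -0.09. Their sign was the same as under drought in 59.3% of the higher genes, 67.9% of the lower genes and 57.7% of all tested genes, so the higher genes were close to the background. The named identifiers had irrigated log2 differences of 0.17 (Traes_3B_F3882622D), 0.35 (Traes_2AL_F27B50401), 0.40 (Traes_7DL_630534A5F) and 0.10 (Traes_3AS_8A727B48F), with edgeR adjusted p of 0.949, 0.976, 0.648 and 0.958.

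Whether the effect of LRM itself differed between irrigations was tested as the interaction, in which edgeR called 487 genes (0.851% of those tested), 267 with a positive (0.467%) and 220 with a negative interaction (0.384%). The count was 20 to 1279 when 1 of the 12 libraries was left out, and each omission moved it by over 1.5 times. Among the named identifiers the interaction was 3.41 on the log2 scale for Traes_3B_F3882622D (SE 0.55, edgeR adjusted p = 0.0221), -2.86 for Traes_7DL_630534A5F (SE 0.33, edgeR adjusted p = 0.00869) and -2.46 for Traes_3AS_8A727B48F (SE 0.46, edgeR adjusted p = 0.0325). For Traes_2AL_F27B50401, with hardly any counts in irrigated leaves, it was 2.97 (SE 1.96, edgeR adjusted p = 0.586). The named identifiers were picked for a large difference under drought, which is a term of the interaction. Their interaction sizes and adjusted p are favoured by that choice and are given as a description.

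Abundant genes were called more often and more often lower. Classes were set by mean CPM over all 12 libraries, and CPM is not corrected for gene length. Of 959 genes at 100 CPM or more, 85 were higher and 208 lower with LRM, and the median log2 difference of the class was -0.21. Of 4280 genes from 20 to 100 CPM, 421 were higher and 634 lower, a split that turned to 565 higher and 420 lower with library totals, while the most abundant class kept 104 higher and 197 lower. From 5 to 20 CPM 949 of 12996 genes were higher and 811 lower, from 1 to 5 CPM 811 of 21929 were higher and 634 lower, and below 1 CPM 173 of 17062 were higher and 133 lower. With library totals these 3 classes held 1172 higher and 446 lower, 1026 higher and 377 lower, and 214 higher and 101 lower genes. The median SE was 0.52 below 1 CPM and 0.12 at 100 CPM or more, so small differences could be called only in the more abundant genes. The 208 lower genes of the most abundant class had a median of 127 CPM in drought_LRM and 209 CPM in drought_water, beside 232 and 241 CPM in irrigated_LRM and irrigated_water. The 85 higher ones had a median of 348 CPM in drought_LRM and 165 CPM in drought_water, beside 133 and 119 CPM in irrigated_LRM and irrigated_water.

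**Figure D4:**
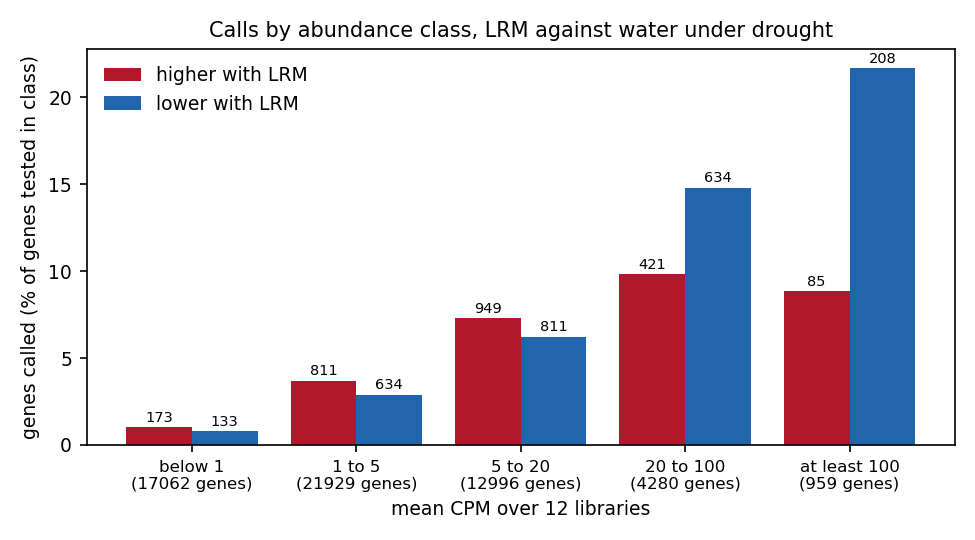
Share of the tested genes of each abundance class that were called higher (red) or lower (blue) with LRM under drought, as percent from 0, with the number of genes above each bar. The shares run from 1.01% higher and 0.780% lower below 1 CPM to 8.86% higher and 21.7% lower at 100 CPM or more.

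Summed over genes, the 2439 higher genes took 9.54%, 11.9% and 9.48% of all counts in drought_LRM 1, 2 and 3, against 5.70%, 4.76% and 3.81% in drought_water 1, 2 and 3. The 2420 lower genes took 11.4%, 11.9% and 11.7% in drought_LRM, against 15.5%, 16.4% and 17.6% in drought_water. From drought_water 1 to 3 the share of the higher genes fell and that of the lower genes rose. In irrigated leaves the higher genes took 3.50% to 4.12% with LRM and 3.22% to 4.31% with water.

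Transcript length set the calls apart less than abundance did. A length for 94.0% of the tested genes was derived from the ratio of deposited counts to deposited FPKM. Below 1000 bases 611 of 13209 genes were higher and 532 lower with LRM, from 1000 to 2000 bases 964 of 19286 were higher and 916 lower, and from 2000 to 3000 bases 524 of 11623 were higher and 522 lower. At 3000 bases or more 336 of 9667 were higher and 429 lower, and with library totals 427 were higher and 218 lower. With library totals the 3 shorter classes, shortest first, held 773 higher and 377 lower, 1230 higher and 615 lower, and 646 higher and 311 lower genes. The median log2 difference ran from 0.01 in the shortest class to -0.05 in the longest.

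Calls in both directions were found on all 41 chromosomes or arms that the identifiers name (3B is given whole). The share of tested genes called was 8.48% for subgenome A, 8.56% for B and 8.44% for D, all near the 8.49% of the whole table. Among arms it ran from 5.16% on 3DS, with 27 higher and 28 lower of 1065 genes, to 10.9% on 1AL, with 91 higher and 88 lower of 1646 genes, with a median arm at 8.50%. Under TMM 19 arms held more higher genes, 20 more lower genes and 2 equal numbers, and with library totals all 41 held more higher genes. By chromosome group the share was 9.71% for group 1, 8.91% for group 2, 7.86% for group 3, 8.61% for group 4, 8.49% for group 5, 7.99% for group 6 and 7.85% for group 7. No test was made of these shares.

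**Figure D5:**
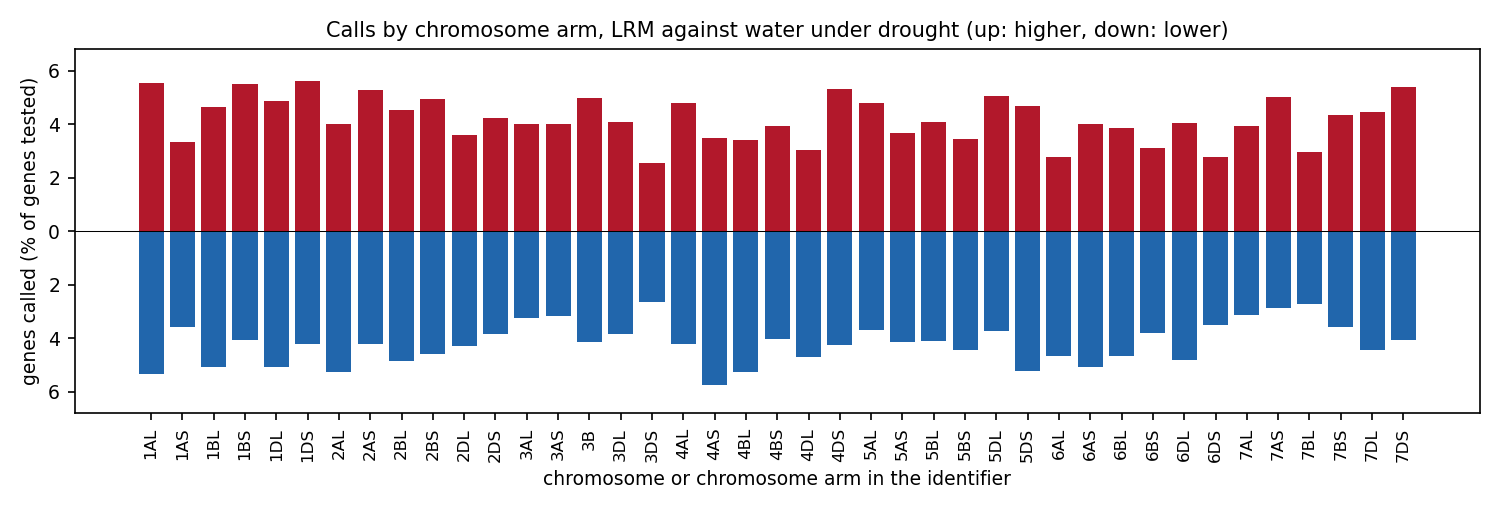
Percent of the tested genes of each chromosome arm called higher (upward, red) and lower (downward, blue) with LRM under drought. The higher share runs from 2.54% (3DS) to 5.63% (1DS) and the lower share from 2.63% (3DS) to 5.74% (4AS).

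Among the called genes 45 had 0 counts in all drought_LRM libraries and 15 had 0 counts in all drought_water libraries. Genes well counted under the other spray were fewer. With at least 10 counts in each drought_LRM library and 0 in each drought_water library there were 9 genes, all of which edgeR called higher. Over the drought_LRM libraries they summed to 56 to 443 counts, at least 25.4-fold to 201-fold above 3 counts over the drought_water group, and 6 of them had 0 counts in all irrigated libraries. With 0 counts in each drought_LRM library and at least 10 in each drought_water library there were 30 genes, with 32 to 118 counts over the drought_water group, of which 27 were tested and 20 were called lower. Their bounds were at least 7.84-fold to 28.9-fold lower. All 30 had counts in irrigated_water and 28 had counts in irrigated_LRM. The drought_LRM libraries are shallower as a group, and the part of depth in these zeros was not tested. The bounds cover counting error only.

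The genes at least 8-fold apart were mostly of low abundance. The 99 higher ones had a median level of 3.61 CPM in drought_LRM, 0.259 in drought_water, 0.0772 in irrigated_LRM and 0.0567 in irrigated_water, and 31 of them had no counts in any irrigated library. The 79 lower ones, 45 of which had 0 counts in drought_LRM, had a median level of 0.380 CPM in drought_water, 0.445 in irrigated_LRM and 0.528 in irrigated_water. With genes at 0 set to their bound, 99 higher and 68 lower genes were at least 8-fold apart. Of the 99 and 79 genes, 40 and 27 belonged to the core. Of 827 tested identifiers that share their first 9 characters after the arm with another, in 393 sets, 67 were called, a share near the 8.49% of the whole table. Identifiers of such a set may share reads, so they are uncertain as separate genes.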

How the data were processed

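PolyA RNA from leaves was sequenced in 12 libraries, 3 in each of 4 groups. The authors deposited whole-number read counts per gene identifier. Per the submitters' processing notes the tools included HISAT2, StringTie, DESeq2 and FastQC, with no version or role stated. Genome build, annotation, strand setting and treatment of multiply mapped reads: not given in the sources used here. The second deposited table holds FPKM as judged from its values: 99.8% of 555204 cells over 20 counts lay within 5% of the value implied by counts and a constant length, and 173 cells were about 1000 times that value. It served for lengths and an alternative.

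Counts were tested with edgeR 4.0.16 (R 4.3.3; TMM, filterByExpr, quasi-likelihood, Benjamini-Hochberg over 57226 genes) in 1 fit of 4 group means. SE was derived from F. Alternatives were DESeq2 1.42.0, limma 3.58.1 on log2(FPKM + 1), library totals, other filters, a fit of the 6 libraries compared, a replicate block, omission of each library and, added after seeing the data, counts thinned to the shallowest library. The log2 levels used a pseudocount of 0.5 CPM. Scripts were tested on simulated data. The rule for named identifiers took the 2 with the greatest rise and the 2 with the greatest fall in the core set. The members, rule and classes were chosen with earlier results of these data known.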

Additional observations from a re-analysis of the deposited data

Results flagged for a closer look

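The effect of LRM differed between drought and full irrigation in 487 genes by edgeR's interaction test. That count was 224, 135 and 323 without drought_LRM 1, 2 or 3, 1279, 25 and 193 without drought_water 1, 2 or 3, 37, 30 and 95 without irrigated_LRM 1, 2 or 3, and 169, 20 and 181 without irrigated_water 1, 2 or 3. Traes_3B_F3882622D had an interaction of 3.41 on the log2 scale, with differences between sprays of 3.57 under drought and 0.17 under full irrigation. For Traes_7DL_630534A5F the interaction was -2.86, with differences between sprays of -2.47 under drought and 0.40 under full irrigation. For Traes_3AS_8A727B48F it was -2.46, with differences of -2.36 under drought and 0.10 under full irrigation. These identifiers were named for their difference under drought, which is a term of the interaction, so the choice favours large values.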

How the results depend on the processing

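Across 20 alternatives the 4 named identifiers kept their direction, and 79 of 80 values kept their side of the threshold. The exception was Traes_2AL_F27B50401 by DESeq2 (log2 difference 3.33, adjusted p = 0.0635). The rule for naming required a call in the 6 fits without 1 drought library, so those values were fixed in advance. The fits without an irrigated library kept all drought libraries, so their values could hardly move either. The number of genes called for LRM against water under drought was 1700 to 5316 when 1 of the 12 libraries was left out, 5927 by DESeq2, 4622 with library totals, 4467 by limma, 3266 in the fit of the 6 libraries compared and 4329 with thinned counts. Under full irrigation it was 0 to 3 when 1 library was left out and 211 by DESeq2. The interaction called 20 to 1279 genes when 1 library was left out, 1731 by DESeq2, 892 with a filter at a mean of 1 CPM and 742 by limma. With the replicate block it called 811, and the comparison of sprays under drought 5169. Correlations of same-numbered libraries' deviations were 0.016, 0.086 and -0.17 in the drought groups and 0.29, 0.16 and -0.015 in the irrigated groups. The labels do not say what the numbers mark and not every pair exceeded 0.1, so the numbers were not taken as pairs. These correlations compare sprays within an irrigation only, so they cannot decide whether a number marks something shared by all groups. The cause of the changes in the numbers of calls was not tested. Below 1 CPM the median SE of the log2 difference was 0.52 at the deposited depths, so small differences were not detectable there.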
